A study of Mus musculus with 8 samples.

Results

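The 10 Notch pathway genes described here are the receptors Notch1, Notch2, Notch3 and Notch4, the ligands Jag1 and Jag2, the DNA-binding factor Rbpj, and the transcriptional targets Hes1, Hey1 and Heyl. They were taken by gene symbol from a table of raw read counts for 24940 genes in mouse liver, and all 10 symbols were found. The table holds polyA RNA-seq libraries from 8 livers of male C57BL/6 mice, 4 labelled FXRKO and 4 labelled BCL6LKOFXRKO. FXRKO livers carried floxed Bcl6 alleles without Cre, with homozygous loss of the bile acid receptor FXR in the whole animal. BCL6LKOFXRKO livers carried the same floxed Bcl6 alleles and the same loss of FXR together with Alb-Cre, a Cre driven by the albumin promoter, which is active in hepatocytes and leaves Bcl6 intact in most other cells of the liver. All 8 mice therefore lacked FXR, no liver with intact FXR is in the table, and hepatocyte loss of the transcriptional repressor BCL6 and the presence of Cre cannot be told apart. The ages of the mice are not given in the labels. The study had asked how hepatic BCL6 and FXR together bear on cholestatic liver disease, and the comparison made here is BCL6LKOFXRKO against FXRKO.

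Notch signalling passes between neighbouring cells. A Jagged or Delta-like ligand on one cell binds a Notch receptor on the next, the receptor is cut outside the membrane by an ADAM protease and within it by gamma-secretase, and the freed intracellular domain joins RBPJ and Mastermind-like proteins on DNA to switch on the HES and HEY repressors. In liver the pathway is best known for directing biliary cell fate during bile duct formation, with Jag1 and Notch2 as the central ligand and receptor, and for its roles in endothelial and mural cells.

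Libraries held 7586241 to 10056721 counts in FXRKO livers and 9156775 to 11839503 in BCL6LKOFXRKO livers. Levels are given as counts-per-million values (CPM) of the library size scaled by TMM, a method that corrects for differences in library composition, and 3 counts corresponded to 0.272 to 0.375 CPM. Bcl6 itself was at 56.3, 65.2, 21.2 and 55.6 CPM in FXRKO livers 1 to 4, and at 11.9, 4.61, 5.55 and 7.72 CPM in BCL6LKOFXRKO livers 1 to 4. The groups did not overlap, FXRKO liver 3 was the lowest of its group, and the log2 fold change was -2.72 (SE 0.40, adjusted p = 0.00123, edgeR). The hepatocyte markers, led by Alb, summed to 54500 to 67300 CPM in FXRKO livers and 146000 to 163000 CPM in BCL6LKOFXRKO livers, so hepatocyte RNA was abundant in every library. Alb, named after its values were seen, was at 44600 ± 4420 and 135000 ± 8120 CPM (SD, n = 4).

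Of the 9 members with enough counts to be tested, Notch1 and Heyl were higher in BCL6LKOFXRKO livers and the other 7 did not pass the test. Notch1 was 1.63 times higher (95% interval 1.18 to 2.27) and Heyl, a basic helix-loop-helix repressor switched on by Notch, 2.65 times higher (1.67 to 4.19). Over all 8 livers together, Notch2 was the most counted receptor and Jag1 the most counted ligand among the members. Notch2, Jag1 and Rbpj had log2 fold changes between -0.08 and 0.00. Jag2 was too rarely counted to be tested. The 2 members called higher are 22.2% of the 9 tested, where 16.2% of all 12340 tested genes were called higher, so the share is near the background. In either direction 29.7% of tested genes were called, and a log2 fold change above 0.5 or under -0.5 in addition left 14.1% higher and 9.84% lower. Both called members passed that fold. Their livers also did not overlap between groups, which was so with higher BCL6LKOFXRKO levels for 16.1% of tested genes. No member was called lower by edgeR, DESeq2 or limma voom, and no member with a negative fold change had an unadjusted p under 0.05, where 13.5% of all tested genes were called lower. The median log2 fold change was 0.32 over the 9 tested members and 0.01 over all tested genes. A gene was called at a p-value from edgeR's quasi-likelihood test below 0.05 after Benjamini-Hochberg adjustment over all tested genes.

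**Figure D1:**
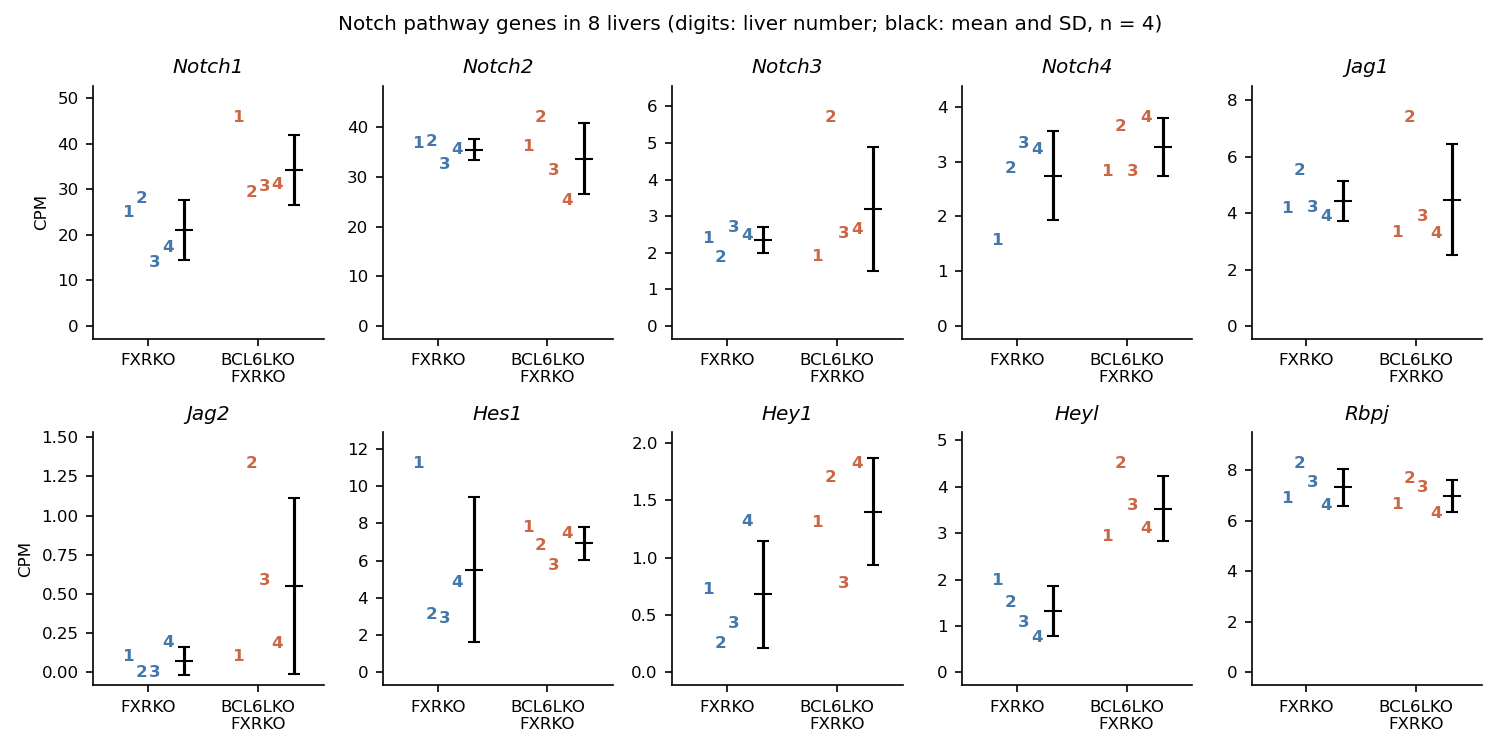
CPM of the 10 Notch pathway genes (vertical axes, linear, each gene on its own scale) in FXRKO livers (blue) and BCL6LKOFXRKO livers (orange), with each digit giving a liver's number and the black bar the mean and SD of 4 livers. The digits of the 2 groups separate for Notch1 and Heyl and overlap for the other 8 genes, and liver 2 of the BCL6LKOFXRKO group stands above the rest for Notch3, Jag1 and Jag2.

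The promoters of the most counted receptors are shown because the levels of these paralogues and their shares of the receptor total are compared below. The difference between the fold changes of Notch1 and Notch2 was not itself tested in the fit, and their 95% intervals on the log2 scale, 0.23 to 1.18 and -0.40 to 0.24, overlap. Each line is the 250 bases before the RefSeq start (GRCm38.p6), 5′ to 3′ on the gene's strand, with every CG dinucleotide in capitals. The Notch1 window is chr2:26503823-26504072 on the minus strand and the Notch2 window is chr3:98013288-98013537 on the plus strand.
Notch1: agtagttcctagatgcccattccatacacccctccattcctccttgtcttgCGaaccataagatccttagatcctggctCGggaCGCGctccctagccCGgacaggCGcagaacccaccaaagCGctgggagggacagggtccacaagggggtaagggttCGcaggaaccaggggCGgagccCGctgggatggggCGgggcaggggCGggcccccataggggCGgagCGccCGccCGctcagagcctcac
Notch2: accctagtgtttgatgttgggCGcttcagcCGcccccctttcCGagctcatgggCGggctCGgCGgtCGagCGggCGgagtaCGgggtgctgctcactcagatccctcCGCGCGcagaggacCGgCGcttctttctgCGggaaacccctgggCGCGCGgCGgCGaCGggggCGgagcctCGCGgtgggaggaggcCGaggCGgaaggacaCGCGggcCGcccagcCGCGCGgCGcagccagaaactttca
The Notch1 stretch was 66.0% G and C with 16 CG dinucleotides, and the Notch2 stretch 72.0% with 34. The median over all 32851 RefSeq windows was 52.4% with 6 CG dinucleotides. RefSeq windows were found for 7 of the 10 members, Hes1, Hey1 and Heyl having no entry in the table used, and they held between 4 CG dinucleotides (Notch4) and 54 (Jag2). The RBPJ motif GTGGGAA and the BCL6 motif TTCCTNGAA, searched on both strands of the 300 bases around each start, occurred in none of the member windows. They occurred in only 6.38% and 1.59% of all windows, so finding none in 8 member windows is unremarkable. The targets Hes1, Hey1 and Heyl could not be searched, and the absence says only that these letters are not in the stretches searched.

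Notch1 (NM_008714, mm10 chromosome 2, 26457902 to 26503822, minus strand, 34 exons) encodes the broadly expressed receptor that in adult liver is found in several non-parenchymal cell types as well as in parenchyma. It was at 25.0, 28.0, 13.9 and 17.2 CPM in FXRKO livers 1 to 4, and at 45.8, 29.4, 30.7 and 31.0 CPM in BCL6LKOFXRKO livers 1 to 4. Every BCL6LKOFXRKO liver was above every FXRKO liver, but the nearest livers of the groups were only 28.0 and 29.4 CPM, and BCL6LKOFXRKO liver 1 stood well above the other 3 of its group. The means were 21.0 ± 6.58 and 34.2 ± 7.78 CPM (SD, n = 4), a log2 fold change of 0.71 (SE 0.22, adjusted p = 0.0287, edgeR). The call was lost in 4 of the 8 fits with 1 liver left out. The log2 fold change became 0.55 without FXRKO liver 3 (adjusted p = 0.0726), 0.62 without FXRKO liver 4 (0.081), 0.53 without BCL6LKOFXRKO liver 1 (0.0859) and 0.76 without BCL6LKOFXRKO liver 4 (0.0678). It was lost as well with libraries scaled by total counts alone (log2 fold change 0.55, adjusted p = 0.0728). Antisense transcripts 0610009E02Rik and Gm13568 overlap Notch1 exons, and whether the counting used strand is not given in the sources used here.

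Notch2 (NM_010928, chromosome 3, 98013538 to 98150367, plus strand, 34 exons) is the receptor required for bile duct formation. It was at 36.8, 37.2, 32.5 and 35.5 CPM in FXRKO livers, and at 36.2, 42.0, 31.3 and 25.2 CPM in BCL6LKOFXRKO livers. The groups overlapped, with the second group spread on both sides of the first. The means were 35.5 ± 2.17 and 33.6 ± 7.16 CPM, and the log2 fold change of -0.08 had a 95% interval of -0.40 to 0.24 (adjusted p = 0.715, edgeR). The predicted transcript Gm42820 overlaps its exons on the same strand, so reads there cannot be assigned to either gene by strand.

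Notch3 (NM_008716, chromosome 17, 32120893 to 32166852, minus strand, 33 exons), the receptor of vascular smooth muscle and pericytes, was counted far less. Its levels were 2.39, 1.87, 2.69 and 2.46 CPM in FXRKO livers, against 1.91, 5.70, 2.53 and 2.63 CPM in BCL6LKOFXRKO livers. Only liver 2 of the second group lay above the FXRKO range. The log2 fold change of 0.41 (SE 0.33, 95% interval -0.30 to 1.12, adjusted p = 0.376, edgeR) became -0.01 without that liver. The antisense gene Gm17276 overlaps its exons.

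Notch4 (NM_010929, chromosome 17, 34564295 to 34588543, plus strand, 30 exons) is the receptor largely restricted to endothelium. It was at 1.56, 2.87, 3.33 and 3.22 CPM in FXRKO livers and 2.82, 3.64, 2.82 and 3.81 CPM in BCL6LKOFXRKO livers. The groups overlapped, and the log2 fold change was 0.25 (95% interval -0.32 to 0.83, adjusted p = 0.507, edgeR). Without FXRKO liver 1, the lowest of its group, it was 0.05.

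RPKM, the CPM divided by transcript length in kilobases, were used to compare levels between genes. Notch1 made up 39.4%, 41.2%, 27.1% and 30.3% of the summed receptor RPKM in FXRKO livers, and 54.0%, 37.0%, 46.5% and 49.7% in BCL6LKOFXRKO livers. The mean share was 34.5 ± 6.86% and 46.8 ± 7.22% (SD, n = 4), a difference of 12.3 percentage points (exact permutation test, two-sided, p = 0.086, adjusted over the 4 receptors 0.17). Notch2 made up 52.5%, 49.5%, 57.3% and 56.4% in FXRKO livers, and 38.5%, 47.8%, 42.8% and 36.4% in BCL6LKOFXRKO livers. The Notch2 share did not overlap between the groups. It averaged 53.9 ± 3.61% and 41.4 ± 5.02%, a difference of -12.5 percentage points (exact permutation p = 0.029, the smallest the 70 orderings of 4 against 4 livers allow, adjusted 0.11). Neither share passed the threshold after adjustment, but with 70 orderings a single fully separated share among 4 cannot go below 0.11 once adjusted, so that missing the threshold says little. A share needs no scaling between libraries, and the 4 shares of a liver sum to 100%, so they are not independent. The shares of Notch3 and Notch4 differed by 0.416 and -0.197 percentage points (adjusted p = 0.89 for each, exact permutation test).

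**Figure D2:**
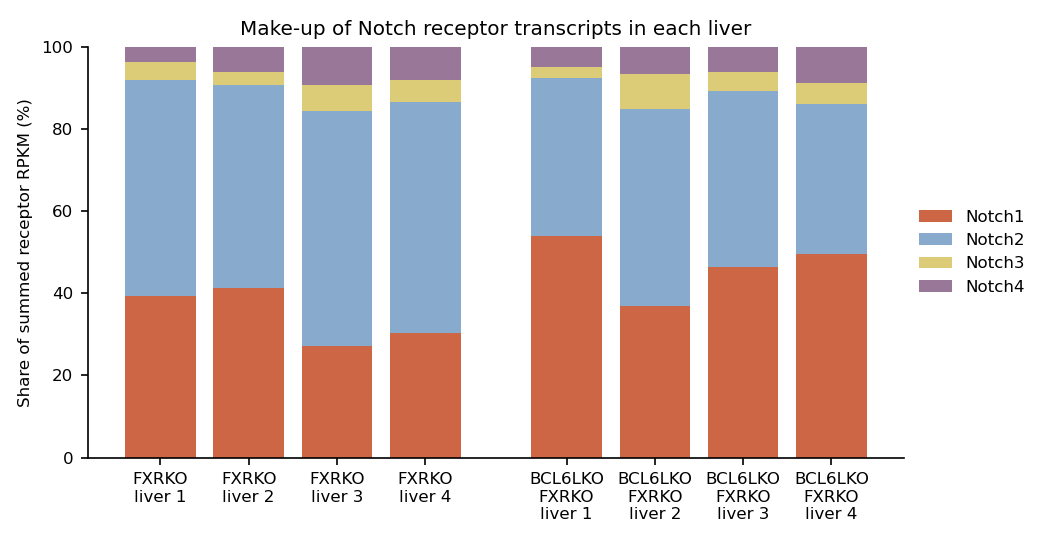
Share of the summed receptor RPKM (vertical axis, percent, from 0) taken by Notch1, Notch2, Notch3 and Notch4 in each of the 8 livers. The Notch2 block covers 49.5% to 57.3% in FXRKO livers and 36.4% to 47.8% in BCL6LKOFXRKO livers, while the Notch1 block is larger in 3 of the 4 BCL6LKOFXRKO livers than in any FXRKO liver.

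Jag1 (NM_013822, chromosome 2, 137081451 to 137116520, minus strand, 26 exons) encodes the ligand whose loss in humans causes Alagille syndrome, with too few bile ducts. It was at 4.16, 5.50, 4.19 and 3.88 CPM in FXRKO livers, and at 3.32, 7.40, 3.90 and 3.27 CPM in BCL6LKOFXRKO livers. Livers 1, 3 and 4 of the second group lay near or under the lowest FXRKO livers and liver 2 above all of them. The means of 4.43 ± 0.724 and 4.47 ± 1.97 CPM gave a log2 fold change of 0.00 (95% interval -0.62 to 0.62, adjusted p = 0.999, edgeR), which without BCL6LKOFXRKO liver 2 was -0.34.

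Jag2 (NM_010588, chromosome 12, 112908590 to 112929495, minus strand, 26 exons), a ligand related to Jag1, had 1, 0, 0 and 2 counts in FXRKO livers and 1, 11, 6 and 2 counts in BCL6LKOFXRKO livers. All 4 FXRKO livers and 2 of the BCL6LKOFXRKO livers were at or under 3 counts. The summed counts were 3 and 20, and the ratio of summed counts over library size was 6.33 with an exact conditional interval of 1.88 to 33.3, which covers counting error only and not the spread between mice. Over mice the exact permutation test gave p = 0.14 (two-sided, 70 orderings). With no filter on low counts the log2 fold change was 2.51 (SE 0.95, adjusted p = 0.0633, edgeR). Jag1 held 96.7%, 100%, 100% and 93.8% of the summed RPKM of Jag1 and Jag2 in FXRKO livers and 96.0%, 80.3%, 83.1% and 93.0% in BCL6LKOFXRKO livers. That was a difference in mean share of -9.51 percentage points (97.6 ± 2.99% and 88.1 ± 7.58%, SD, n = 4, exact permutation p = 0.057).

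Rbpj (NM_001080927, chromosome 5, 53590486 to 53657445, plus strand, 11 exons), the DNA-binding factor on which all 4 receptors converge, varied little among livers. It was at 6.87, 8.25, 7.52 and 6.62 CPM in FXRKO livers and 6.65, 7.65, 7.31 and 6.27 CPM in BCL6LKOFXRKO livers. The groups overlapped almost fully, and the log2 fold change of -0.07 had a 95% interval of -0.42 to 0.28 (adjusted p = 0.776, edgeR).

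Among the targets, Heyl (NM_013905, chromosome 4, 123233556 to 123249870, plus strand, 5 exons) had 19, 12, 10 and 8 counts in FXRKO livers and 29, 37, 37 and 34 counts in BCL6LKOFXRKO livers. In CPM these were 1.98, 1.5, 1.07 and 0.757 against 2.92, 4.49, 3.6 and 3.09. The lowest BCL6LKOFXRKO liver was above the highest FXRKO liver. The means of 1.33 ± 0.53 and 3.53 ± 0.706 CPM (SD, n = 4) gave a log2 fold change of 1.41 (SE 0.31, adjusted p = 0.00412, edgeR). The call held in all 15 alternative analyses in which Heyl was tested (adjusted p between 0.000548 and 0.016, log2 fold change 1.20 to 1.67).

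Hes1 (NM_008235, chromosome 16, 30065357 to 30067796, plus strand, 4 exons), the most widely used readout of Notch activity but also under other control, was at 11.2, 3.12, 2.90 and 4.83 CPM in FXRKO livers. In BCL6LKOFXRKO livers it was at 7.76, 6.80, 5.75 and 7.45 CPM. FXRKO liver 1 was above every BCL6LKOFXRKO liver and the other 3 FXRKO livers were below every one of them. With all livers the log2 fold change was 0.32 (SE 0.37, 95% interval -0.49 to 1.13, adjusted p = 0.554, edgeR). Without FXRKO liver 1 it was 0.92 (adjusted p = 0.0137), so that 1 library decided whether Hes1 was called. Without FXRKO liver 2 or 3 it was 0.13 or 0.10 (adjusted p = 0.828 and 0.864). FXRKO liver 1 also had the highest Sox9 level, 7.28 CPM, against 1.73 to 4 CPM in the other 7 livers. Sox9, a biliary transcription factor that Notch can induce, was named after its values were seen. The cholangiocyte marker sum, which includes Sox9, was 191 CPM in FXRKO liver 1, the highest of the FXRKO livers. In BCL6LKOFXRKO livers this sum was higher, at 196 to 303 CPM, where Hes1 was at 5.75 to 7.76 CPM. The part of cholangiocytes in the Hes1 level was not tested.

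Hey1 (NM_010423, chromosome 3, 8663359 to 8667038, minus strand, 5 exons), a relative of Heyl expressed in endothelium among other cells, had 7, 2, 4 and 14 counts in FXRKO livers and 13, 14, 8 and 20 counts in BCL6LKOFXRKO livers. The groups overlapped through FXRKO liver 4. The log2 fold change was 0.96 (SE 0.45, 95% interval -0.02 to 1.94, adjusted p = 0.128, edgeR), and 1.51 without FXRKO liver 4 (adjusted p = 0.0394). The interval is wide at these counts, and a difference the size of that of Heyl was neither shown nor excluded by it. Hey1 passed the filter mainly through the group where it was higher.

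**Figure D3:**
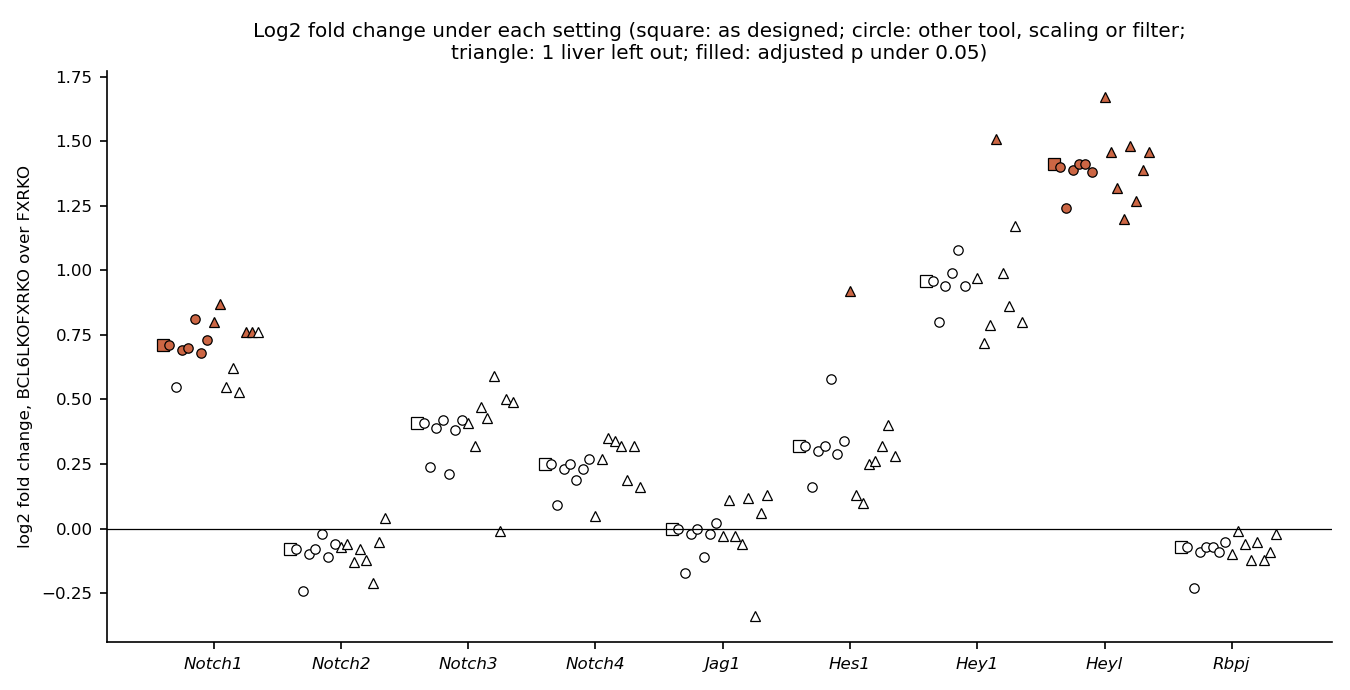
Log2 fold change of BCL6LKOFXRKO over FXRKO livers (vertical axis) of the 9 tested Notch pathway genes as designed (square), with another tool, scaling or filter (circles) and with 1 liver left out (triangles), where filled symbols have an adjusted p under 0.05. Every Heyl symbol is filled and lies between 1.20 and 1.67, some Notch1 symbols are open, and 1 triangle each of Hes1 and Hey1 is filled.

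Liver 2 of the BCL6LKOFXRKO group had the highest CPM of its group for 6 of the 10 members, and 24.8% of all tested genes were highest in that liver within the group. The members were Notch2, Notch3, Jag1, Jag2, Heyl and Rbpj. The same liver had the highest summed level of cholangiocyte markers of all 8 livers, 303 CPM against 123 to 233 CPM in the other 7, and of smooth muscle markers, 121 CPM against 88.7 to 101 CPM. The part of these cells in the member levels was not tested. In whole liver RNA, more cells of a type and more RNA per cell cannot be told apart.

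On the per-length scale, the mean levels in FXRKO livers ran from Hes1 at 3.82 RPKM, Notch2 at 3.39 and Notch1 at 2.22, through Rbpj at 1.33 and Jag1 at 0.811, to Notch4 at 0.418, Hey1 at 0.311, Notch3 at 0.298, Heyl at 0.293 and Jag2 at 0.0182. Going down this order, the livers of neighbouring genes did not overlap between Notch2 and Notch1, Rbpj and Jag1, Jag1 and Notch4, and Heyl and Jag2, and overlapped at every other step. In BCL6LKOFXRKO livers the order was Hes1 at 4.80 RPKM, Notch1 at 3.62, Notch2 at 3.21, Rbpj at 1.27, Jag1 at 0.818, Heyl at 0.779, Hey1 at 0.637, Notch4 at 0.498, Notch3 at 0.404 and Jag2 at 0.137. There the livers of neighbouring genes were apart only between Notch2 and Rbpj. Notch1 thus stood below Notch2 in mean level in FXRKO livers and above it in BCL6LKOFXRKO livers, but in the latter the ranges of the receptors overlapped.

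The profiles most like those of the most counted member of each role were found by the root mean square difference of mean-centred log2 CPM over the 8 livers, among 9356 candidate genes. For Notch2 they were Serpind1, the coagulation inhibitor heparin cofactor II, at 0.062, the endoplasmic reticulum chaperone Canx at 0.07 and Arhgap1 at 0.071, where the median candidate was at 0.32. Rbpj lay nearest to Naa40 at 0.051, Sri at 0.065 and Mapk1ip1l at 0.066 (median 0.27). Jag1 lay nearest to the urea cycle enzyme Arg1 at 0.174, the zinc transporter Slc39a14 at 0.182 and Ddx19b at 0.191 (median 0.44). Hes1 lay nearest to Slc1a4 at 0.224, Cyp2c55 at 0.225 and Ier5 at 0.29 (median 0.66). The nearest distances are not compared between members, since the median distance also differed between them. These genes were picked as the closest of 9356 over only 8 livers. Notch2 and Rbpj themselves differed little between groups (log2 fold changes -0.08 and -0.07), so closeness to them does not show shared regulation.

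A wider list of 69 other Notch pathway genes, grouped by role, had 57 tested genes, of which 8 (14.0%) were called higher, 4 (7.02%) lower, and 45 were not called. All tested genes had 16.2% higher and 13.5% lower, and the median log2 fold change of the list was -0.01. The pathway outside the 10 members was therefore called no more often than genes at large, and the calls fell on single genes within roles.

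The Delta-like ligands were not called. Dll4, the endothelial ligand, was at 2.57 ± 0.59 and 3.8 ± 0.678 CPM (log2 fold change 0.57, adjusted p = 0.102, edgeR), and Dll1 at 4.18 ± 0.629 and 4.57 ± 1.08 CPM (0.13, adjusted p = 0.692). Dll3, Dlk1 and Dlk2 had too few counts to test.

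Among the 5 enzymes that glycosylate the receptors, 2 rose. Pofut1, which adds the O-fucose needed for ligand binding, went from 15.4 ± 1.41 to 20.4 ± 2.01 CPM (log2 fold change 0.41, adjusted p = 0.032). Lfng, which extends that fucose and shifts the receptors' preference among ligands, went from 3.28 ± 0.32 to 5.15 ± 1.4 CPM (0.66, adjusted p = 0.0478). Neither overlapped between groups, yet the calls held in only 3 and 2 of the 8 fits with 1 liver left out.

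Among 10 receptor proteases, Adam10, which makes the first activating cut, was at 16.9, 20.1, 17.7 and 21.7 CPM in FXRKO livers and 32.3, 39.3, 38.1 and 20.8 CPM in BCL6LKOFXRKO livers. It rose in 3 of 4 livers beyond the FXRKO range (log2 fold change 0.77, SE 0.18, adjusted p = 0.00721, edgeR), and the call held in each of its 16 alternatives. Of the gamma-secretase subunits, 1 was called in each direction, with Aph1c up from 0.649 ± 0.309 to 1.44 ± 0.368 CPM (1.14, adjusted p = 0.0457) and the far more abundant Aph1a down from 29.5 ± 2.64 to 21.6 ± 1.62 CPM (-0.45, adjusted p = 0.0116). Aph1c had 10, 5, 6 and 3 counts in FXRKO livers and 10, 15, 17 and 14 in BCL6LKOFXRKO livers, so that it passed the filter mainly through the group where it was higher. Its call was lost with DESeq2 (adjusted p = 0.0651), with no filter (0.0704) and with total counts alone (0.0701), and held in 2 of the 8 fits with 1 liver left out. It has a near-identical copy, Aph1b, so that its unique reads are uncertain. The other 7 were not called.

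None of the 8 coactivators was called, and 7 of them had a negative log2 fold change (median -0.30). Among 16 corepressors, Ncor1, the scaffold of a histone deacetylase complex that both RBPJ and BCL6 can recruit, fell from 64.0 ± 7.75 to 45.9 ± 6.87 CPM (log2 fold change -0.48, adjusted p = 0.0164, edgeR). FXRKO liver 2 stood at 75.6 CPM over 59.6 to 60.6 in the rest of its group, and without it the change was -0.39 with an adjusted p of 0.0588.

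Among 10 tested genes for trafficking and turnover of the receptors, the Deltex ubiquitin ligases Dtx3 and Dtx4 rose and the ubiquitin ligase Itch, which marks Notch for degradation, fell. Dtx4 was at 15.7, 14.5, 8.28 and 7.95 CPM in FXRKO livers and 41.3, 34.1, 19.1 and 25.2 CPM in BCL6LKOFXRKO livers, with no overlap (log2 fold change 1.37, SE 0.29, adjusted p = 0.00486, edgeR). Dtx3 went from 8.58 ± 1.53 to 15.8 ± 0.745 CPM (0.88, SE 0.15, adjusted p = 0.000947). Itch was at 41.1, 45.7, 39.4 and 48.3 CPM in FXRKO livers and 24.5, 28.3, 33.4 and 17.5 CPM in BCL6LKOFXRKO livers, also without overlap (-0.75, SE 0.17, adjusted p = 0.00515). These 3 calls held in all 16 alternatives.

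Of the other targets, 6 of 11 were tested and 3 were called. Id1, a helix-loop-helix inhibitor that responds chiefly to BMP signalling, was at 4.16, 4.25, 1.29 and 2.65 CPM in FXRKO livers and 21.4, 18.8, 13.4 and 26.7 CPM in BCL6LKOFXRKO livers. The groups were far apart (log2 fold change 2.71, SE 0.31, adjusted p = 5.58e-05, edgeR). The G1 cyclin Ccnd1 rose from 27.4 ± 7.42 to 63.1 ± 11.9 CPM (1.20, SE 0.18, adjusted p = 0.000409). Both genes have many inputs besides Notch. Hes6, which acts against Hes1 rather than as a typical target, fell from 72.0 ± 17.7 to 48.6 ± 9.56 CPM (-0.57, adjusted p = 0.0292), with overlap between groups. The call was lost without FXRKO liver 3 (-0.38, adjusted p = 0.0936), BCL6LKOFXRKO liver 1 (-0.47, 0.083) or BCL6LKOFXRKO liver 3 (-0.54, 0.0695). Sox9 was not called, at 4.37 ± 2.02 and 2.52 ± 0.697 CPM (-0.81, adjusted p = 0.0773).

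**Figure D4:**
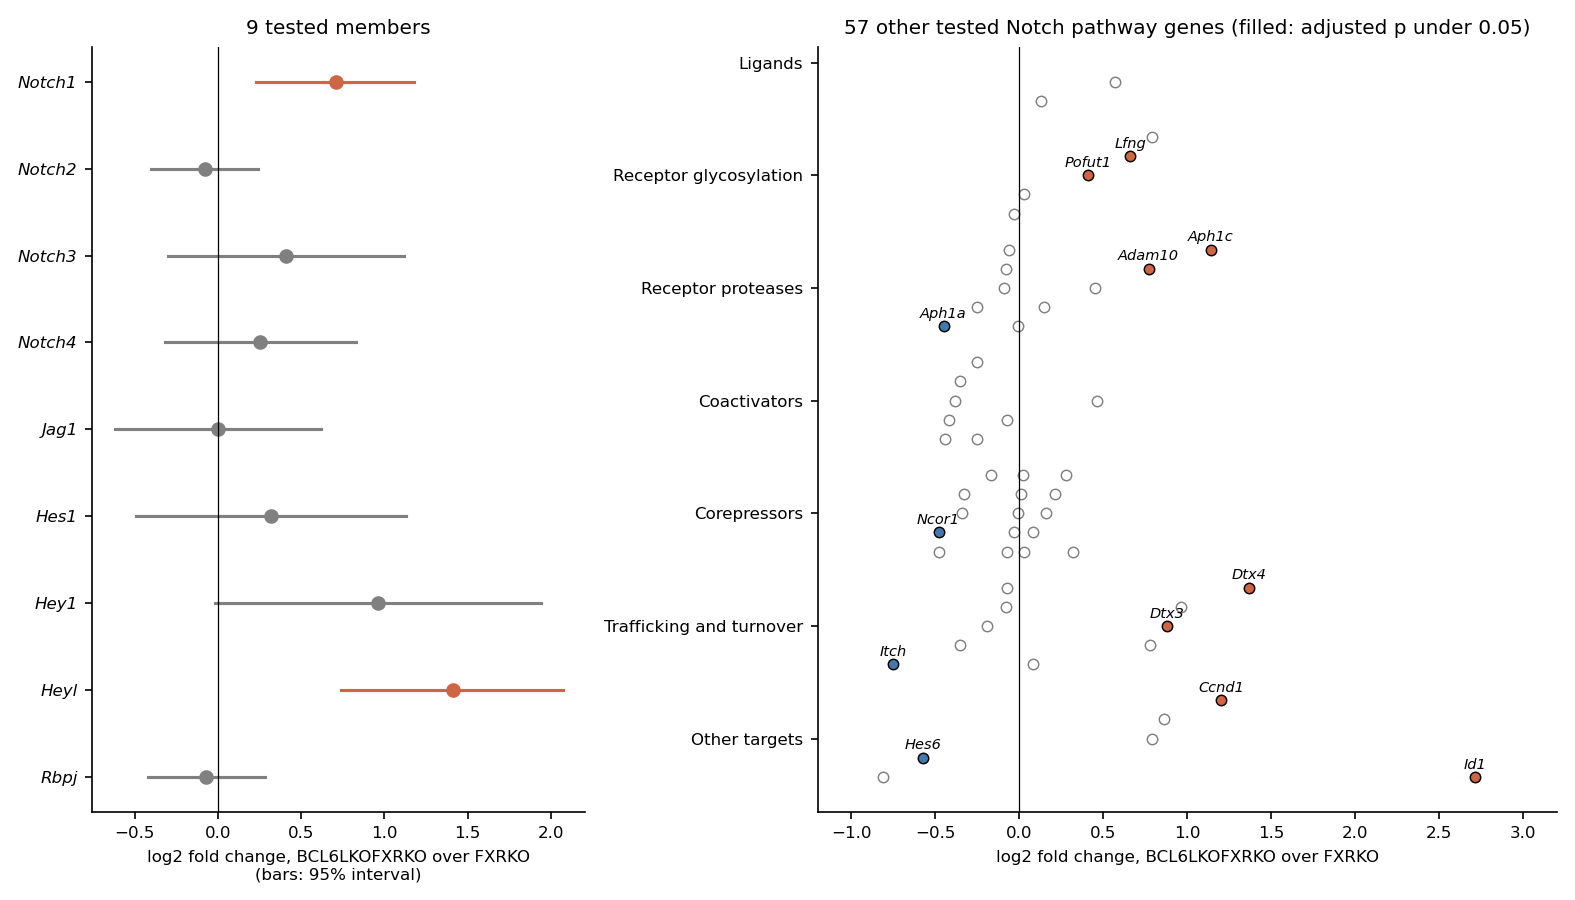
Log2 fold change of BCL6LKOFXRKO over FXRKO livers (horizontal axes) of the 9 tested members with 95% intervals (left, called genes in orange) and of 57 other tested Notch pathway genes by role (right, filled where the adjusted p is under 0.05, orange higher, blue lower). The intervals of Notch1 and Heyl alone clear 0 among the members, and on the right 12 points are filled, 8 to the right and 4 to the left, with Id1 farthest out at 2.71.

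Marker lists of the liver's cell types are given beside the members. Of 15 stellate cell and fibroblast markers, 13 were called higher and none lower, their summed level running from 349 to 472 CPM in FXRKO livers and from 704 to 775 CPM in BCL6LKOFXRKO livers (median log2 fold change 0.91). Vascular endothelial markers had 4 of 7 tested genes higher, with sums of 71.8 to 92.6 and 117 to 149 CPM. Cholangiocyte markers had 5 of 9 higher, with sums of 123 to 191 and 196 to 303 CPM. A few genes made up most of the cholangiocyte sum. They were Tm4sf4, at 82.3 and 79.9 CPM on average, Spp1, at 43.4 and 87.2, and Prom1, at 0.969 and 30.6. The sums of these 3 lists did not overlap between the groups.

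The hepatocyte, proliferation and T cell sums did not overlap either, and the other 4 sums did. Sinusoidal endothelial markers had 2 of 12 higher and sums of 273 to 363 and 355 to 460 CPM, and macrophage markers 3 of 11 higher and sums of 397 to 559 and 549 to 886 CPM, each with overlap. Smooth muscle markers had 3 of 6 tested genes higher and 1 lower, with overlapping sums of 88.7 to 101 and 89.1 to 121 CPM. The gene called lower, Mylk, was the largest single part of the sum, at 62.7 and 43.1 CPM on average. Of the 6 tested genes 5 had a positive log2 fold change, with a median of 0.78 for the list. Among 8 hepatocyte markers, Alb was called higher and Ttr lower (log2 fold change -0.76). Only 3 of the 8 had a positive log2 fold change, and the median was -0.1. Their sums stood 1.22 to 1.38 on the log2 scale above the FXRKO mean in BCL6LKOFXRKO livers. Alb, at 44600 and 135000 CPM on average, made up most of these sums, so the separation is that of Alb. Proliferation genes had 3 of 5 tested genes higher (sums of 11.2 to 14.7 and 18.9 to 34.4 CPM). T cell markers had 1 tested gene, called higher (1.87 to 2.74 and 5.24 to 8.35 CPM), and B cell markers 1, not called (2 to 5.27 and 2.43 to 7.54 CPM). No marker was at 0 in all livers. Set beside these, the log2 fold changes of Heyl and Notch1 were 1.41 and 0.71, and the part of the cell types in them was not tested.

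**Figure D5:**
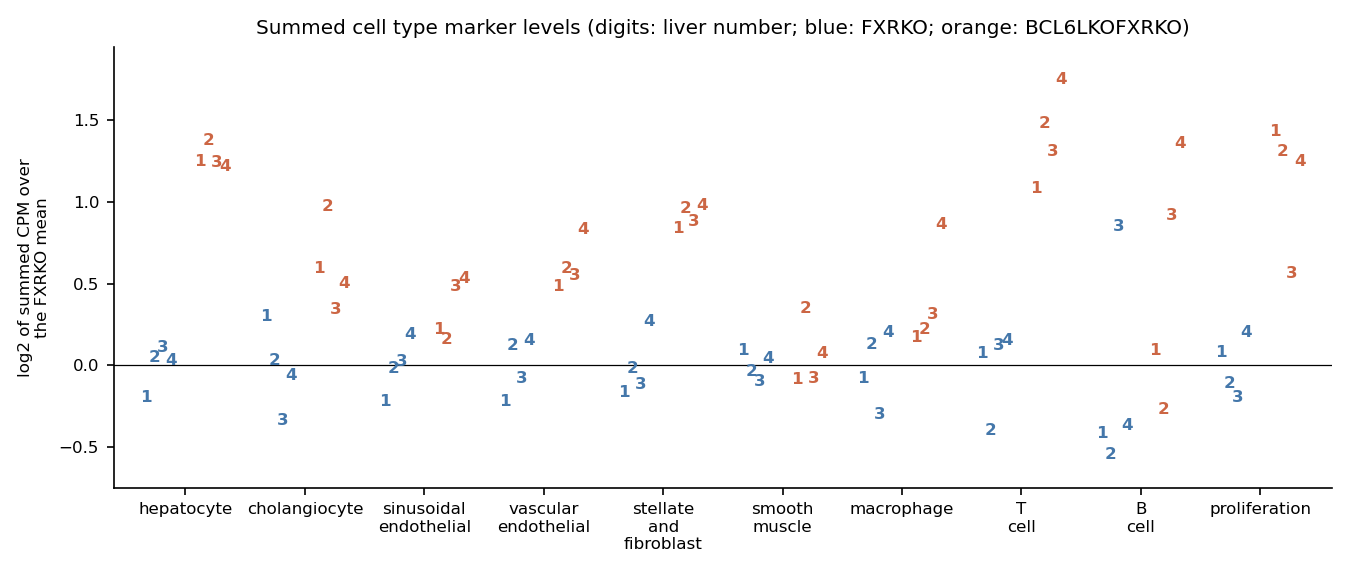
Log2 of the summed CPM of each cell type marker list over its FXRKO mean (vertical axis, 0 being the mean of 4 FXRKO livers), with digits giving the liver number, FXRKO in blue and BCL6LKOFXRKO in orange. The groups separate for the hepatocyte, cholangiocyte, vascular endothelial, stellate and fibroblast, T cell and proliferation lists and overlap for the other 4. The hepatocyte sum is mostly Alb.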

How the data were processed

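The authors made libraries with the TruSeq Stranded mRNA kit, mapped the reads with STAR 2.5.2 (build mm10, unique alignments kept) and deposited a table of raw counts over exons per gene made with HOMER (version 4.10 in the submitters' processing notes). Whether strand was used in counting is not given in the sources used here. From these counts, edgeR 4.0.16 (R 4.3.3) was run on all 8 livers with TMM factors, filterByExpr and the robust quasi-likelihood test, and 12340 genes were tested. RPKM was computed here as CPM over the length column in kilobases. Shares and Jag2 were tested by exact permutation over 70 orderings. Intervals are 95% intervals. The scripts were tested on simulated data.

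Alternatives were RLE factors, total counts alone, the 50 most counted genes left out of the scaling, DESeq2 1.42.0, limma 3.58.1 voom, filters of none or of 10 counts or more per liver, a log2 fold threshold of 0.5, raw-count shares, and each liver left out.

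The members and gene lists were chosen with earlier results of these data known. The text names all members, Bcl6, up to 3 called genes per direction of each pathway role, and the 3 nearest profiles (mean count of at least 50, prior count 2) of the most counted member per role. Dll1, Dll4, Sox9, Alb, Ttr, Mylk, Tm4sf4, Spp1 and Prom1 fall outside this rule and were named after their values were seen. Tle5 was matched as Aes, and Trac was not matched. Each library has its own number in its title, and no statement on separate litters or batches was found in the labels, so p-values measure the spread between these samples. Pairs of livers of a group differed by 10 to 45.8 times the counting noise (chi-square over degrees of freedom), so none was the same library sequenced again. That check cannot tell whether any libraries were prepared from the same liver. The livers are numbered 1 to 4 within a group in accession order.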

Additional observations from a re-analysis of the deposited data

Results flagged for a closer look

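In 3 of 55 groups of 4 livers examined, 1 liver stood apart by Dixon's test, where chance alone would give about 2.8 (about 1 in 20). Notch1 in BCL6LKOFXRKO liver 1 was at 45.8 CPM against 29.4 to 31.0 CPM in the other 3 (Dixon ratio 0.903, above the 95% critical value for 4 samples). Jag1 in BCL6LKOFXRKO liver 2 was at 7.40 CPM against 3.27 to 3.90 CPM (ratio 0.848). Ncor1 in FXRKO liver 2 was at 75.6 CPM against 59.6 to 60.6 CPM (ratio 0.943). Hes1 in FXRKO liver 1, at 11.2 CPM, had a ratio of 0.769, under the critical value.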

How the results depend on the processing

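No paired analysis was possible because the labels give each library a number of its own and none is shared between the genotypes, nor do the labels tie any liver to another. Some of these numbers run consecutively across the genotypes. No label says whether near numbers share a litter, batch or day, so an effect of such blocks was not tested. With total counts alone, the median log2 fold change of all genes moved from 0.01 to -0.15. Genes called lower then numbered 2949 against 1665, the share of calls that were higher fell to 32.3% from 54.5%, 1 member was called higher, and the other pathway genes had 5 higher and 13 lower. With at least 10 counts in every liver Heyl and Hey1 were not tested, and 1 member was called higher. With the fold threshold of 0.5, other pathway genes called lower numbered 2. Leaving out 1 liver gave 1 to 3 members higher and 0 lower, other pathway genes 6 to 8 higher and 3 to 7 lower, genes at large 1584 to 1873 higher and 1267 to 1668 lower, and a Bcl6 log2 fold change of -3.04 to -2.57. The log2 fold change of Jag1 changed sign around its value of 0.00, to 0 with RLE factors, -0.17 with total counts alone, -0.02 with the 50 most counted genes left out, -0.11 with limma voom, -0.02 with no filter, and -0.34 to 0.13 with 1 liver left out. Leaving out 1 liver moved Notch2 between -0.21 and 0.04, Notch3 between -0.01 and 0.59, Notch4 between 0.05 and 0.35, Hes1 between 0.10 and 0.92, and the share differences of Notch3 between -0.704 and 1.26, Notch4 between -1.28 and 0.663, Notch1 between 9.84 and 15.6, Notch2 between -14.7 and -10.9 and Jag1 between -12.2 and -6.92 percentage points. The causes were not tested. Notch1, Notch4, Hes1, Hey1, Heyl and Rbpj kept their direction in every alternative in which they were tested. Over alternatives, members had 124 values with the same direction and call, 5 that lost the call, 2 that gained it and 11 that changed sign. The other named pathway genes and Bcl6 kept direction and call in 174 and lost the call in 33. Depth limits Jag2, Hey1 and Aph1c, with a few counts in some livers.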
